A study of Homo sapiens with 6 samples.

Results

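The genes described here write, read or erase methyl groups on lysine 4 of histone H3 (H3K4), or belong to TFIID, the general transcription factor that binds this mark at promoters. The 39 genes were taken by symbol from the 20388 in the table, by a rule that names the pathway and uses no measured value but was written with earlier results of these data known, and all 39 were found. RNA was measured by sequencing in 6 libraries of MHCC-97H, an established human hepatocellular carcinoma line whose genotype is labelled WT. Of these, 3 came from cells kept with the solvent DMSO for 24 h and 3 from cells kept with 2 µM GK921 for 24 h. GK921 is an inhibitor of transglutaminase 2 (TGM2), and the series title links TGM2 to serotonylation of histones, so the comparison asks here how the RNA of the H3K4 machinery differed after the inhibitor. Levels are in FPKM, fragments per kilobase of transcript relative to the library total, a unit that allows levels of different genes to be set side by side.

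TGM2 can attach serotonin to glutamine 5 of histone H3, the residue next to lysine 4. Lysine 4 is methylated by KMT2 and SETD1 enzymes, each bound to a shared core of WDR5, RBBP5, ASH2L and DPY30 and to subunits that differ between complexes. The flavin enzymes KDM1A and KDM1B remove mono- and dimethyl groups, and the KDM5 enzymes remove di- and trimethyl groups. Trimethylated H3K4 marks active promoters, where PHD fingers, small zinc-binding domains, dock onto it, among them that of the TFIID subunit TAF3.

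The libraries held 13992 to 14433 genes above 0. Totals of reads per library were not used here, and the spacing of low values put the depths at 0.768 to 1 of the deepest library, with DMSO libraries at 0.868 to 1 and GK921 libraries at 0.768 to 0.862. Of 14 liver and liver cancer markers, 4 had a mean of at least 1 FPKM (HNF4A, KRT8, KRT18 and KRT19), while ALB, AFP and APOA1 were under that and GPC3 was listed at 0 throughout. Their summed level was 2645 to 2653 FPKM in DMSO and 2034 to 2104 after GK921, nearly all of it keratin. Of 12 markers of blood, endothelial and stromal cells, 4 reached 1 FPKM (CD68, LYZ, PECAM1 and DCN), with sums of 118 to 125 and 103 to 117 FPKM, and COL1A1, COL3A1 and PTPRC were under 1. Most of that sum was CD68. The fibroblast gene DCN lay at 7.23, 8.77 and 9.02 FPKM with DMSO and at 0.75, 0.97 and 1.14 FPKM with GK921 and fell 8.75-fold (log2 change -2.26 ± 0.13, limma adjusted p = 4.16e-07). LYZ lay at 0, 0.17 and 0.74 FPKM with DMSO and at 2.32, 0.21 and 3.56 FPKM with GK921, and CD68, LYZ and PECAM1 were not called (limma adjusted p = 0.0823, 0.0569 and 0.888), though CD68 was lower after median-ratio scaling (-0.30, limma adjusted p = 0.00196). The part of either marker list in the changes below was not tested. TGM2 mRNA itself lay at 42.1, 42.1 and 42.1 FPKM with DMSO and at 42.6, 42.3 and 42.9 FPKM with GK921 (log2 change 0.017 ± 0.040, limma adjusted p = 0.71), and it was lower after the median-ratio scaling described below (-0.15, limma adjusted p = 0.00642). Whether the 3 libraries of a group were grown as separate cultures is not stated, so p-values here measure spread that may only be technical. In bulk RNA, fewer cells of a type and less RNA per cell cannot be told apart.

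After GK921 most of the 39 genes differed from DMSO, in both directions and mostly by less than 2-fold. KDM1B, KDM6A and ING4 rose the most, and WDR82, KDM1A and WDR5 fell the most. By limma on log2(FPKM + 1), with an adjusted p under 0.05 over all 11573 tested genes, 21 members were higher and 10 lower, and 8 were not called. Over all tested genes 46.8% were called higher and 29.2% lower, 75.9% in all, against 79.5% of the members, so the share of members called was near that of any gene. The lowest member, TAF5, had a mean of 4.84 FPKM, so every member passed the limit of a mean of 1 FPKM. GK921 and DMSO values were fully separate for 23 members that were higher and 11 that were lower, where 48% and 30% of all tested genes were so (78% in all), and 34 of 39 members in all.

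The scale of the libraries decided part of these calls. The median tested gene was 0.16 higher after GK921 on the log2 scale, and dividing each library by its median ratio to the others brought this to -0.0013. With that scaling 13 members were higher and 14 lower, where 36.5% and 37.8% of all tested genes were (74.3% in all). A total of 23 members, 13 higher and 10 lower, had the same call as deposited and under median-ratio, upper-quartile and quantile scaling. Without each library in turn 21 of these also had it. Among all tested genes, 36.5% were higher and 29.2% lower both as deposited and with median ratios. The share of all tested genes that kept a call under every one of these settings was not computed. Folds below are ratios of mean FPKM as deposited, errors beside means are SD over 3 libraries, errors beside log2 changes are SE, and "rose" and "fell" mean a call on the deposited values.

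**Figure D1:**
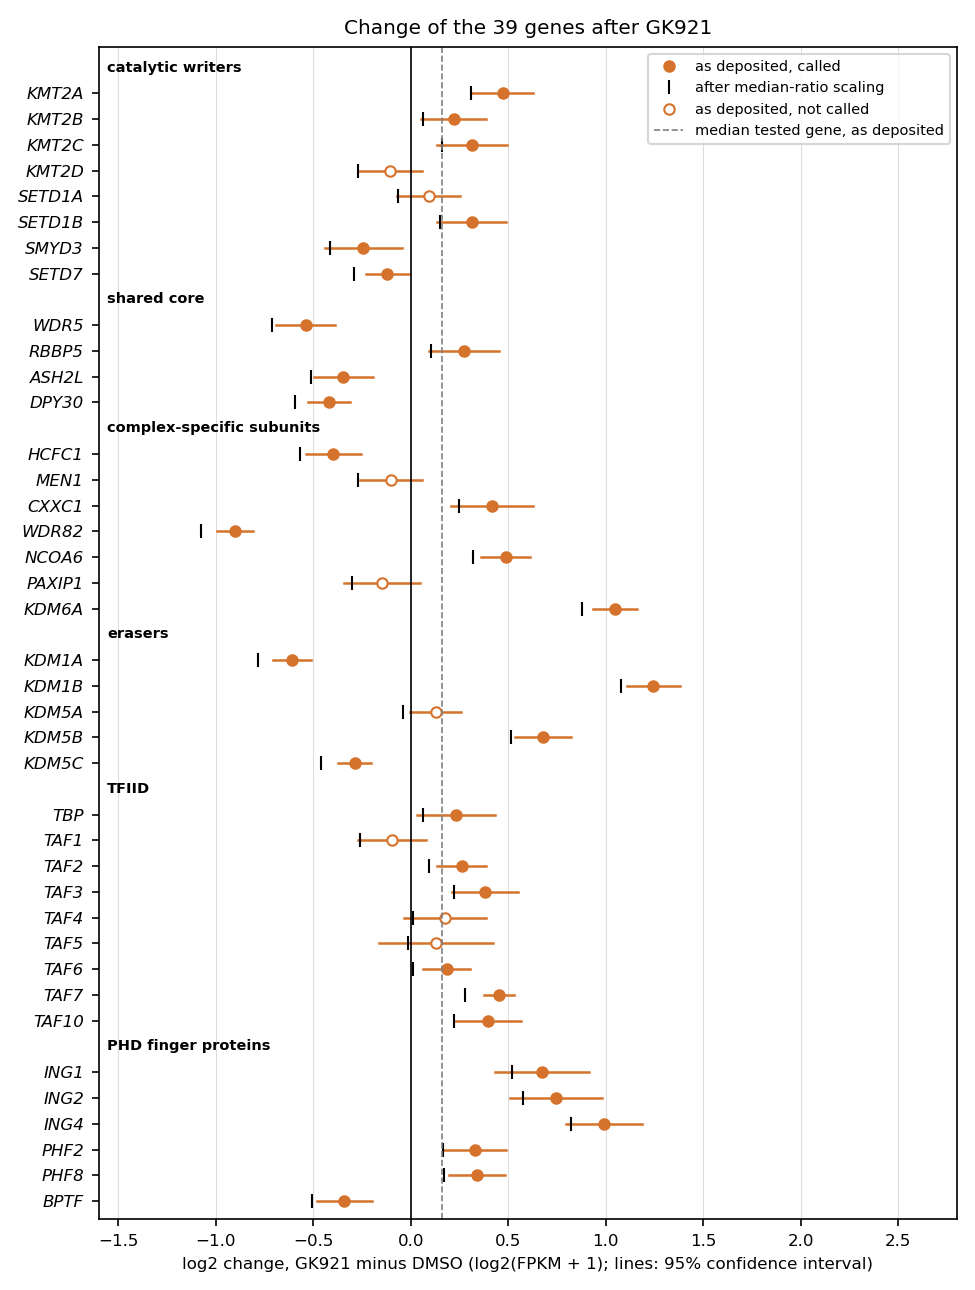
Log2 change of each of the 39 genes (GK921 minus DMSO, on log2(FPKM + 1)), by role. Points are estimates from 3 libraries a group with 95% confidence intervals as lines, filled where called at an adjusted p under 0.05, black ticks give the change after median-ratio scaling, and the dashed line is the median tested gene at 0.16. KDM1B lies furthest right at 1.24 and WDR82 furthest left at -0.90.

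Most changes of the members were small. The median distance of a member's log2 change from that of the median gene was 0.28, against 0.42 over all tested genes. Only KDM1B and KDM6A, 2 of 39, had a fitted change of at least 1 log2 unit, a size that 16.1% of all tested genes reached. When the change was tested against 1.2-fold (limma's treat), 9 members were higher (31.1% of all tested genes) and 4 lower (18.4%). The 9 were KDM1B, KDM6A, ING4, ING2, KDM5B, ING1, NCOA6, KMT2A and TAF7, and the 4 were WDR82, KDM1A, WDR5 and DPY30. The median log2 change of the members was 0.22, or 0.06 after median-ratio scaling, beside 0.16 and -0.0013 for all tested genes.

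**Figure D2:**
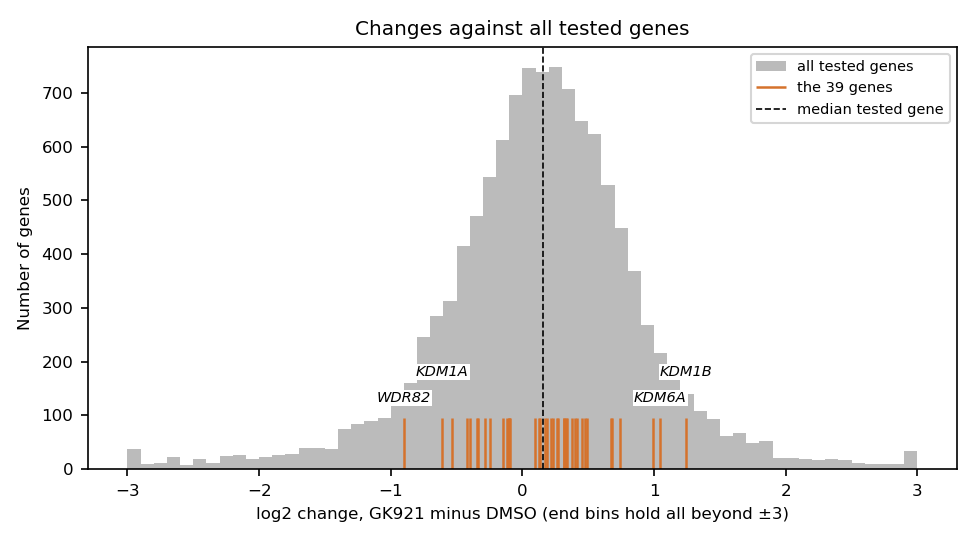
Distribution of log2 changes of all 11573 tested genes (grey bars, number of genes per bin of the log2 change) with the 39 genes as orange lines. The lines run from -0.90 (WDR82) to 1.24 (KDM1B) around the median gene at 0.16, inside the range of all genes from -4.39 to 5.11.

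The catalytic writers had log2 changes from -0.24 to 0.47. The 6 KMT2 and SETD1 enzymes had DMSO means between 5.76 FPKM (KMT2C) and 11.7 FPKM (KMT2D), under those of every core subunit. Of 8 writers 4 rose and 2 fell, or 1 and 3 with median-ratio scaling. Over all tested genes 46.8% were called higher and 29.2% lower, or 36.5% and 37.8% with that scaling. The share of writers called as deposited, 75%, was near the 75.9% of all tested genes. KMT2A (chromosome 11, 118436464 to 118526832 in GRCh38), the MLL1 enzyme that is rearranged in leukaemia, lay at 11.6, 11.6 and 10.7 FPKM with DMSO and at 15.4, 16.9 and 15.8 FPKM with GK921. No GK921 library overlapped a DMSO library, and KMT2A rose 1.42-fold (log2 change 0.47 ± 0.069, limma adjusted p = 2.20e-04). KMT2A was the 1 writer that was also higher under each scaling, at 0.31 with median ratios.

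Its close paralog KMT2B and the enzymes KMT2C and SETD1B rose 1.18-fold, 1.29-fold and 1.26-fold (limma adjusted p = 0.0217, 0.00546 and 0.00514), and none of these 3 rises was called after median-ratio scaling (limma adjusted p = 0.476, 0.09 and 0.105). The rise of KMT2B was also not called without the first DMSO library (0.0658), the third (0.0682) or the first GK921 library (0.0555), as limma adjusted p-values. KMT2D and SETD1A were not called. KMT2D, which with KMT2C methylates enhancers, lay at 12.1, 11.6 and 11.4 FPKM with DMSO and at 10.3, 11.5 and 10.5 FPKM with GK921, so the groups overlapped. It was lower with median-ratio scaling (-0.27, limma adjusted p = 0.00806). SETD1A, a main source of trimethylation in many cells, lay at 8.46, 8.72 and 8.8 FPKM with DMSO and at 9.02, 9.32 and 9.55 FPKM with GK921 (limma adjusted p = 0.261).

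SMYD3 and SETD7 are writers outside these complexes that also methylate proteins other than histones. SMYD3, first described as an H3K4 enzyme in liver and colon cancer cells, lay at 27.4, 30.5 and 33.1 FPKM with DMSO and at 27.2, 22.8 and 26.3 FPKM with GK921. It fell 1.19-fold (log2 change -0.24 ± 0.086, limma adjusted p = 0.0287), with the highest GK921 value just under the lowest DMSO value. The call was lost without the second DMSO library (limma adjusted p = 0.0687), the third (0.103) or the second GK921 library (0.0965). SETD7, a monomethyltransferase, lay at 36.2, 37.6 and 35.2 FPKM with DMSO and at 32.8, 32.8 and 34.4 FPKM with GK921, a fall of 1.09-fold (log2 change -0.12 ± 0.048, limma adjusted p = 0.0476). That call was lost without the first (limma adjusted p = 0.0924) or second (0.151) DMSO library and without the first (0.109) or second (0.11) GK921 library, while median-ratio scaling gave it a limma adjusted p of 4.92e-04.

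In the shared core, WDR5, ASH2L and DPY30 fell and RBBP5 was higher. Beside this, 46.8% of all tested genes were called higher and 29.2% lower, or 36.5% and 37.8% with median-ratio scaling. WDR5 (chromosome 9, 134135365 to 134159968), the propeller protein that holds the enzyme and the core together and binds the H3 tail, lay at 82.7, 85.6 and 75.2 FPKM with DMSO and at 55.7, 51.4 and 59.6 FPKM with GK921. All 3 GK921 values lay under all DMSO values, a fall of 1.46-fold (log2 change -0.54 ± 0.066, limma adjusted p = 6.61e-05). DPY30, a small subunit that binds ASH2L as a dimer and the most abundant member, lay at 127, 122 and 120.3 FPKM with DMSO and at 93.9, 95.8 and 85.5 FPKM with GK921. It fell 1.34-fold (log2 change -0.42 ± 0.048, limma adjusted p = 4.49e-05). In the annotation 50.5% of the exonic bases of DPY30 lie in exons of MEMO1 on the same strand, and MEMO1 fell too, from 58.2 ± 1.38 to 37.3 ± 2.15 FPKM. How reads in the shared exons were assigned is not known.

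ASH2L, which with RBBP5 stimulates the enzyme, lay at 22.4, 25.4 and 22.8 FPKM with DMSO and at 18.2, 19.1 and 17.6 FPKM with GK921, and fell 1.29-fold (log2 change -0.35 ± 0.066, limma adjusted p = 0.0012). RBBP5 lay at 20.2, 21.8 and 20.2 FPKM with DMSO and at 24, 28.5 and 23.5 FPKM with GK921. Its groups did not overlap, and it rose 1.22-fold (log2 change 0.27 ± 0.079, limma adjusted p = 0.0119), but it was not called after median-ratio scaling (0.10, limma adjusted p = 0.264). The ratio of RBBP5 to ASH2L within a library, which no scaling of whole libraries can change, was 0.901, 0.858 and 0.884 in DMSO and 1.32, 1.49 and 1.33 after GK921, so ASH2L was the higher of the pair in every DMSO library and RBBP5 in every GK921 library. The ratios of WDR5 and of DPY30 to ASH2L overlapped between the groups. WDR5 to ASH2L was 3.7, 3.36 and 3.29 in DMSO and 3.05, 2.7 and 3.38 after GK921, and DPY30 to ASH2L was 5.66, 4.79 and 5.27 in DMSO and 5.16, 5.03 and 4.85 after GK921.

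**Figure D3:**
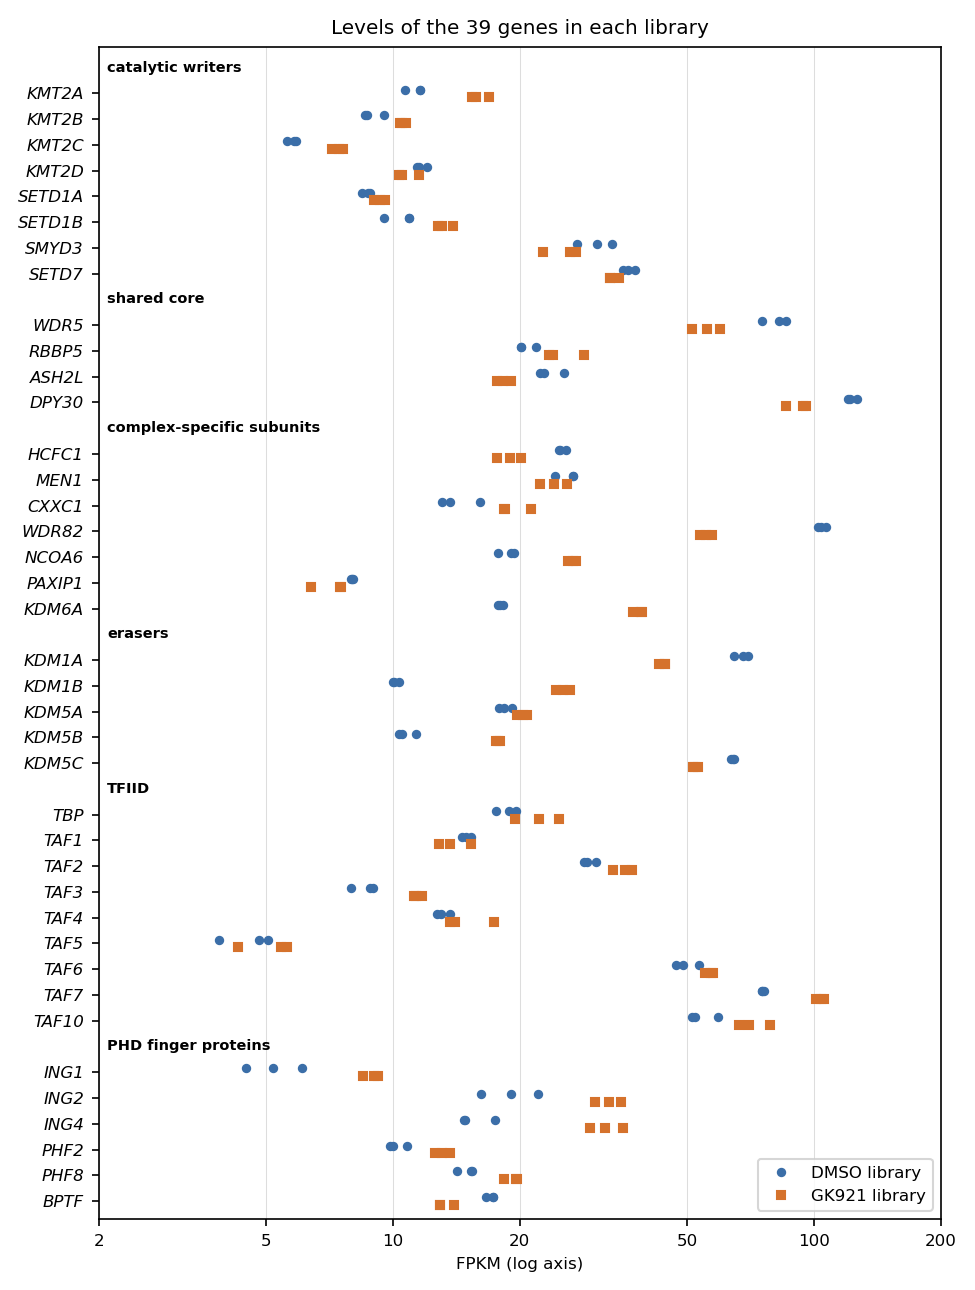
FPKM of each of the 39 genes in every library (log axis), by role, with circles for the 3 DMSO and squares for the 3 GK921 libraries. WDR82, KDM1A, WDR5 and DPY30 lie apart to the left after GK921 and KDM1B, KDM6A and ING4 to the right, whereas KMT2D, MEN1, TBP, TAF1 and TAF5 overlap.

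Of the 7 subunits that set the complexes apart, 3 rose, 2 fell and 2 were not called, or 3, 4 and 0 after division by median ratios. Of all tested genes 46.8% were called higher and 29.2% lower, or 36.5% and 37.8% after that division. In the SETD1 complexes, WDR82 (chromosome 3, 52254421 to 52288020), which ties the enzyme to RNA polymerase II, lay at 102, 104 and 107 FPKM with DMSO and at 53.5, 57.2 and 55.3 FPKM with GK921. The 2 sets lay far apart, and WDR82 fell 1.88-fold, the largest fall of any member (log2 change -0.90 ± 0.040, limma adjusted p = 8.68e-08). CXXC1, which brings the enzyme to unmethylated CpG islands, lay at 16.1, 13.1 and 13.6 FPKM with DMSO and at 18.4, 18.3 and 21.3 FPKM with GK921 and rose 1.35-fold (log2 change 0.41 ± 0.092, limma adjusted p = 0.00285). HCFC1, a scaffold of several KMT2 and SETD1 complexes, lay at 25, 24.8 and 25.8 FPKM with DMSO and at 20.1, 18.9 and 17.6 FPKM with GK921, a fall of 1.33-fold (log2 change -0.40 ± 0.062, limma adjusted p = 3.35e-04). MEN1, the menin subunit that joins KMT2A and KMT2B to chromatin, lay at 26.7, 26.8 and 24.3 FPKM with DMSO and at 25.9, 22.4 and 24.2 FPKM with GK921. Its groups overlapped and it was not called (limma adjusted p = 0.213), but with median-ratio scaling it was lower (-0.27, limma adjusted p = 0.00684). Pseudogenes named after WDR82, CXXC1, ASH2L, BPTF and PHF2 are annotated, and reads shared with them are a source of uncertainty for these 5 genes. Pseudogenes under other names were not searched for, so further members may share reads too.

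Among the subunits of the KMT2C and KMT2D complexes, KDM6A and NCOA6 rose. KDM6A (chromosome X, 44873177 to 45112602), also called UTX, removes methyl groups from another lysine of histone H3. It lay at 17.7, 18 and 18.3 FPKM with DMSO and at 37.1, 38.8 and 38.9 FPKM with GK921, the lowest GK921 value being above every DMSO value, and rose 2.13-fold (log2 change 1.05 ± 0.049, limma adjusted p = 1.23e-07). NCOA6, a coactivator of nuclear receptors, lay at 17.8, 19.4 and 19.1 FPKM with DMSO and at 26.8, 27.1 and 26 FPKM with GK921 and rose 1.42-fold (log2 change 0.49 ± 0.056, limma adjusted p = 4.46e-05). PAXIP1, which also acts in the DNA damage response, lay at 8.04, 7.93 and 7.98 FPKM with DMSO and at 6.38, 7.51 and 7.5 FPKM with GK921. Its groups did not overlap, and it was not called (limma adjusted p = 0.149) as deposited, but it was lower under each of the other scalings (median-ratio, upper-quartile, quantile), at -0.30, -0.23 and -0.34. The ratio of KMT2C to KMT2D within a library was 0.483, 0.509 and 0.489 in DMSO and 0.695, 0.646 and 0.726 after GK921, higher in every GK921 library than in any DMSO library.

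Of the 5 demethylases of H3K4, KDM1B and KDM5B rose, KDM1A and KDM5C fell and KDM5A was not called, with log2 changes from -0.61 to 1.24. The share called, 80%, was near the 75.9% of all tested genes. KDM1A (chromosome 1, 23019443 to 23083689), known as LSD1, works in the CoREST complex. It lay at 69.6, 67.8 and 64.6 FPKM with DMSO and at 44.2, 44.3 and 42.8 FPKM with GK921. No values overlapped, and KDM1A fell 1.54-fold, from 67.3 ± 2.55 to 43.8 ± 0.847 FPKM (log2 change -0.61 ± 0.044, limma adjusted p = 1.95e-06). KDM1B (chromosome 6, 18155329 to 18223853), or LSD2, is its only close paralog and acts mainly within gene bodies. It lay at 10.1, 9.99 and 10.3 FPKM with DMSO and at 25.4, 24.4 and 26.4 FPKM with GK921. Its GK921 values were all above its DMSO values, and it rose 2.5-fold, from 10.1 ± 0.183 to 25.4 ± 0.995 FPKM, the largest rise of any member (log2 change 1.24 ± 0.060, limma adjusted p = 1.42e-07). KDM1A exceeded KDM1B in every library, by a ratio of 6.91, 6.78 and 6.24 in DMSO and 1.74, 1.82 and 1.62 after GK921.

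Of the 3 KDM5 enzymes, 1 rose, 1 fell and 1 was not called, beside 46.8% of all tested genes called higher and 29.2% lower. KDM5B (JARID1B), often raised in cancers, lay at 10.4, 11.3 and 10.5 FPKM with DMSO and at 17.6, 17.8 and 17.9 FPKM with GK921 and rose 1.66-fold (log2 change 0.68 ± 0.064, limma adjusted p = 1.15e-05). KDM5C (JARID1C), the most abundant of the 3, lay at 64.4, 63.3 and 64.2 FPKM with DMSO and at 51.4, 52.9 and 52.3 FPKM with GK921 and fell 1.23-fold (log2 change -0.29 ± 0.037, limma adjusted p = 9.51e-05), with the groups apart. KDM5A, which binds the retinoblastoma protein, lay at 17.9, 19.2 and 18.3 FPKM with DMSO and at 20.3, 20.8 and 19.7 FPKM with GK921. Its groups did not overlap, but the change was not called (limma adjusted p = 0.0688, or 0.0469 in a fit without the intensity trend) and its sign flipped with median-ratio scaling, to -0.040, and with quantile scaling. The ratio of KDM5C to KDM5B was 6.22, 5.59 and 6.11 in DMSO and 2.92, 2.98 and 2.92 after GK921, and that of KDM5A to KDM5B was 1.73, 1.69 and 1.74 in DMSO and 1.15, 1.17 and 1.1 after GK921. KDM5C and KDM6A have similar copies on the Y chromosome, and how reads shared with those copies were counted is not given.

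Ratios were computed within libraries for 13 pairs of paralogs or partners. The groups did not overlap for 8 pairs, 3 higher and 5 lower after GK921. How often ratios of other gene pairs separate was not computed, and 78% of all tested genes were fully separate by themselves. The largest shift was that of KDM1A to KDM1B, at -1.94 on the log2 scale, followed by KDM5C to KDM5B at -1.02, RBBP5 to ASH2L at 0.65, KDM5A to KDM5B at -0.59 and KMT2C to KMT2D at 0.48. The other 3 were TAF1 to TBP at -0.35, KMT2A to KMT2B at 0.26 and SETD1A to SETD1B at -0.24. Each of the 8 had an exact two-sided permutation p of 0.1, the smallest that 3 against 3 libraries allow, and 0.163 after Benjamini-Hochberg adjustment over the 13, so no pair could pass 0.05. For PHF2 to PHF8 and ING1 to ING2 the group means of the log2 ratio differed by -0.0013 and 0.00046, less than their spread. Adding 1 FPKM to both genes shrank the shifts of KDM1A to KDM1B and KDM5A to KDM5B by more than the SD within groups. The other shifts moved by less than that SD, as did all shifts without each library in turn.

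**Figure D4:**
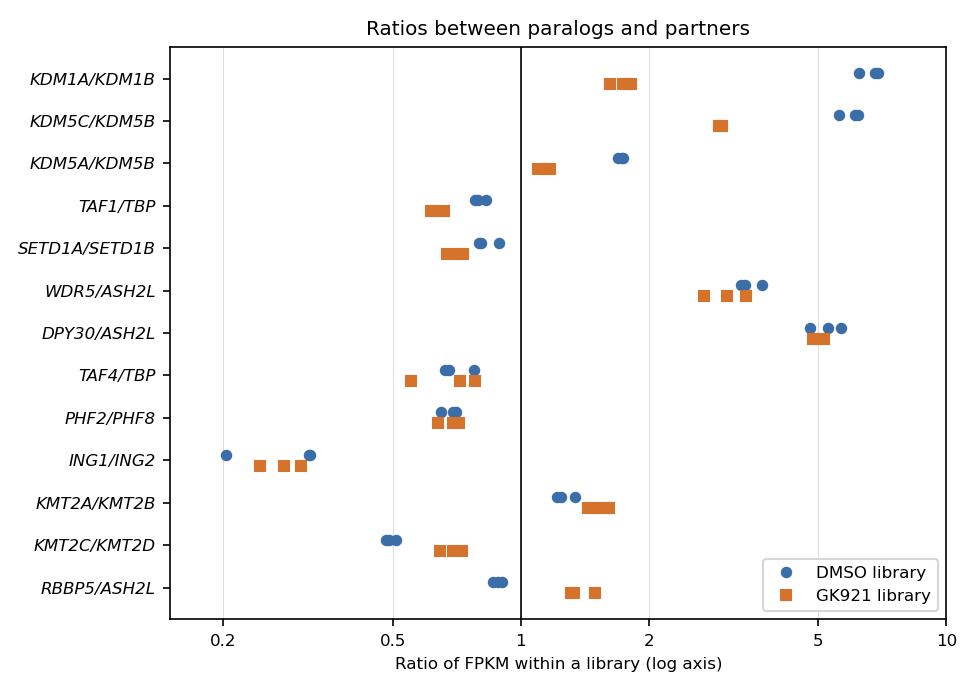
Ratio of FPKM of 2 genes within each library (log axis) for 13 pairs, with circles for DMSO and squares for GK921 libraries. KDM1A exceeds KDM1B 6.24 to 6.91 times in DMSO and 1.62 to 1.82 times after GK921, and RBBP5 to ASH2L crosses 1.

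The upstream sequences of the 2 members that rose most and the 2 that fell most are shown for comparison, since they moved in opposite directions. They come from the 250 bases before the start of each gene, 5′ to 3′ on the gene's strand, from RefSeq on GRCh38.p14, up to the first base that GENCODE places in an exon of the gene (for WDR82 the window lies in an intron of a longer annotated transcript), and capitals mark matches to 5 motifs searched on both strands. The motifs were the E-box CACGTG bound by MYC and MAX, the ETS site CCGGAAGT, the CCAAT box (CCAAT), the ATF4 response element TGATGNAA and the E2F site TTTCCCGC. No 2 matches overlapped in these 4.
KDM1B (chr6:18155172-18155328, 157 bases, plus strand): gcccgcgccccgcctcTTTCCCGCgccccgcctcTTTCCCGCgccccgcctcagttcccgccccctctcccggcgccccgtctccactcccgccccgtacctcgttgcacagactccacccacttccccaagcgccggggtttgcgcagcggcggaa
KDM6A (chrX:44872938-44873176, 239 bases, plus strand): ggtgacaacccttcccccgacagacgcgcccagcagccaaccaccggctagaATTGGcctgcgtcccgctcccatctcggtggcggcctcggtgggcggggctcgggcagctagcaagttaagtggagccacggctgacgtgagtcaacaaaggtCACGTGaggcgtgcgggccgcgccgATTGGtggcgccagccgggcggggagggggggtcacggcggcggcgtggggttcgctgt
KDM1A (chr1:23019218-23019442, 225 bases, plus strand): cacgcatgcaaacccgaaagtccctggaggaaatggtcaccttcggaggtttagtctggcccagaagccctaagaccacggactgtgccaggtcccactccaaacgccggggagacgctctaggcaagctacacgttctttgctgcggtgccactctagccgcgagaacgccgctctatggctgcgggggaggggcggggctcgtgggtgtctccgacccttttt
WDR82 (chr3:52278650-52278899, 250 bases, minus strand): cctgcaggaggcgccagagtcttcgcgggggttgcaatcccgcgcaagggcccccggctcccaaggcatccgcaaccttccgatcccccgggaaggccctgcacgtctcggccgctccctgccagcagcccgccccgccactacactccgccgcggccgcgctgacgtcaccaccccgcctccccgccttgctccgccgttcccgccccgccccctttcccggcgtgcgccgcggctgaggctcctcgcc
Within the stretches shown, KDM1B held the E2F letters at 2 places, KDM6A held 1 E-box and 2 CCAAT boxes (read on the other strand), and none of the 5 motifs was in those of KDM1A and WDR82.

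Upstream sequences were matched for 31 of the 39 genes. The E-box was in 2 of these 31 (6.45%), KDM6A and KMT2D, against 6.49% of 27305 windows of all genes. The CCAAT box was in 6 of 31 (19.4%, against 33%), the ETS site in 1 (3.23%, against 3.64%) and the E2F site in 1 (3.23%, against 1.42%). The ATF4 response element was in 0 of 31, against 3.19% of all windows. Matching letters are a description of the sequence and do not show that a factor binds.

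Of the 9 TFIID members 6 rose and 3 were not called, so 66.7% were called, against 75.9% of all tested genes (46.8% higher and 29.2% lower). After median-ratio scaling 3 were higher and 1, TAF1, lower, beside 36.5% and 37.8% of all tested genes. TAF9B, a further TFIID gene described below, fell. TAF7, which restrains the enzyme activity of TAF1, lay at 75.2, 75.1 and 75.8 FPKM with DMSO and at 104, 101 and 105 FPKM with GK921. The groups lay well apart, and TAF7 rose 1.37-fold (log2 change 0.45 ± 0.034, limma adjusted p = 2.72e-06). TAF3, whose PHD finger binds trimethylated H3K4, lay at 7.96, 8.82 and 8.96 FPKM with DMSO and at 11.8, 11.4 and 11.2 FPKM with GK921 and rose 1.33-fold (log2 change 0.38 ± 0.074, limma adjusted p = 0.00136). TAF10, a subunit shared with the SAGA coactivator, lay at 52.2, 51.2 and 59.1 FPKM with DMSO and at 78.5, 70.1 and 66.4 FPKM with GK921 and rose 1.32-fold (log2 change 0.40 ± 0.073, limma adjusted p = 9.73e-04). Of the exonic bases of TAF10, 38.9% overlap ILK on the opposite strand, ILK rose as well, from 43.8 ± 1.87 to 63.7 ± 2.74 FPKM, and whether strand was used in counting is not given.

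TBP, which binds the TATA box and is often used as a reference gene in RT-qPCR, lay at 19.6, 18.8 and 17.6 FPKM with DMSO and at 19.5, 24.8 and 22.2 FPKM with GK921, so the groups overlapped. It was called higher, 1.19-fold (log2 change 0.23 ± 0.088, limma adjusted p = 0.0384), but not after median-ratio scaling (limma adjusted p = 0.529), nor when DMSO library 2 (0.0732), DMSO library 3 (0.116), GK921 library 2 (0.13) or GK921 library 3 (0.0842) was left out, as limma adjusted p-values. TAF2 and TAF6 rose 1.21-fold and 1.14-fold as deposited (limma adjusted p = 0.00214 and 0.0113) and were at 0.091 and 0.011, not called, with median-ratio scaling. For TAF6, 24.7% of exonic bases overlap AP4M1 on the opposite strand, which lay at 21.6 ± 1.83 and 19.7 ± 1.02 FPKM. TAF1, TAF4 and TAF5, the enzyme and 2 scaffold subunits, had log2 changes of -0.096, 0.17 and 0.13 (limma adjusted p = 0.273, 0.116 and 0.375). The ratio of TAF1 to TBP was 0.782, 0.792 and 0.829 in DMSO and 0.66, 0.618 and 0.614 after GK921, lower in every GK921 library than in any DMSO library.

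Of the 6 members listed by role as PHD finger proteins, 5 rose and BPTF fell, beside 46.8% and 29.2% of all tested genes. Of the 5, 4 held under each scaling. Members that carry a PHD finger but were listed under another role, such as TAF3, are not in this count. ING1, ING2 and ING4 rose. The other two H3K4 readers of the ING family, which are not among the 39, did not pass the test: ING3 had a log2 change of 0.16 (limma adjusted p = 0.245) and ING5 of -0.26 (limma adjusted p = 0.0736), and ING5 was lower after median-ratio scaling (-0.42, limma adjusted p = 0.00987). ING4, a subunit of the HBO1 acetyltransferase complex, lay at 17.4, 14.7 and 14.9 FPKM with DMSO and at 35.1, 29.3 and 32 FPKM with GK921. Its lowest GK921 value exceeded its highest DMSO value, and it rose 2.05-fold (log2 change 0.99 ± 0.086, limma adjusted p = 6.95e-06). ING2, which brings the SIN3 deacetylase complex to trimethylated H3K4, lay at 22.1, 16.2 and 19.1 FPKM with DMSO and at 34.8, 30.1 and 32.6 FPKM with GK921 and rose 1.7-fold (log2 change 0.74 ± 0.10, limma adjusted p = 1.59e-04). ING1, a relative in the same deacetylase complex, lay at 4.48, 5.18 and 6.07 FPKM with DMSO and at 8.49, 9.19 and 9.03 FPKM with GK921 and rose 1.7-fold (log2 change 0.67 ± 0.11, limma adjusted p = 3.59e-04).

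PHF8 and PHF2 carry a PHD finger beside a demethylase domain that acts on other lysines. PHF8 lay at 15.4, 14.2 and 15.4 FPKM with DMSO and at 19.6, 19.7 and 18.3 FPKM with GK921 and rose 1.28-fold (log2 change 0.34 ± 0.063, limma adjusted p = 0.00102). PHF2 rose 1.28-fold (limma adjusted p = 0.00233), a call lost with median-ratio scaling (0.0575). BPTF, the largest subunit of the NURF nucleosome remodeller, lay at 17.3, 17.3 and 16.6 FPKM with DMSO and at 14, 12.9 and 12.9 FPKM with GK921. All its GK921 values were under its DMSO values, and it fell 1.29-fold (log2 change -0.34 ± 0.062, limma adjusted p = 8.82e-04).

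A further 34 genes of the same pathway that are not among the 39 were examined by the same fit, of which 32 passed the expression limit and SMYD1 and TAF4B were listed at 0. Of the 32, 15 were higher and 4 lower, or 9 and 7 after median-ratio scaling. Over all tested genes 46.8% were higher and 29.2% lower, or 36.5% and 37.8% after that scaling. As deposited 59.4% of the 32 were called, against 75.9% of all tested genes. Among the 7 other writers and subunits tested, 3 rose and 1 fell, or 3 and 2 with median-ratio scaling. KMT2E, a reader of trimethylated H3K4 without known writer activity, rose 2.11-fold (from 21 ± 0.601 to 44.4 ± 1.54 FPKM), and BOD1, a chromosome alignment factor that also occurs with SETD1B, rose 1.79-fold. PAGR1, a partner of PAXIP1 in the KMT2C and KMT2D complexes, lay at 14.5, 12.8 and 17.7 FPKM with DMSO and at 7.4, 6.66 and 6.21 FPKM with GK921, and fell 2.22-fold (log2 change -1.04 ± 0.12, limma adjusted p = 3.91e-05), whereas KDM6A and NCOA6 of the same complexes rose.

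The counts in this paragraph stand beside 46.8% of all tested genes called higher and 29.2% lower, or 36.5% and 37.8% with median-ratio scaling. Of 8 genes listed as partners of KDM1A, which itself fell, 4 rose (3 with median-ratio scaling), a share near that of any gene, and 4 were not called. RIOX1, 1 of the 4, is a histone demethylase and ribosomal oxygenase rather than a CoREST subunit, and it was the call lost with median-ratio scaling (limma adjusted p = 0.0145 as deposited and 0.225 after it). The other 3 were RCOR3, HMG20B and PHF21A. PHF21A, which reads unmethylated H3K4 for the CoREST complex, lay at 5.88, 6.31 and 5.76 FPKM with DMSO and at 11.6, 11.6 and 11.8 FPKM with GK921 and rose 1.95-fold (log2 change 0.86 ± 0.074, limma adjusted p = 6.46e-06). RCOR3, a paralog of the CoREST scaffold, rose 1.79-fold (from 18 ± 1.09 to 32.2 ± 0.741 FPKM), and the main scaffold RCOR1 was at 20.2 ± 0.729 and 20.7 ± 1.92 FPKM (limma adjusted p = 0.702). Of 7 other TFIID genes tested 4 rose and 1, TAF9B, fell (1.2-fold, limma adjusted p = 0.0111), and with median-ratio scaling 1 was higher and 1 lower. Of 10 other H3K4 readers 4 rose and 2 fell, or 2 and 4 with median-ratio scaling. The 2 that fell as deposited were SPIN1, a Tudor domain reader, at 1.59-fold lower (from 44.4 ± 2.29 to 28 ± 2.43 FPKM), and PYGO2, a PHD finger coactivator of WNT signalling, at 1.1-fold lower (limma adjusted p = 0.0395). ING5 and DIDO1, a further PHD finger protein (-0.21, limma adjusted p = 0.00546), were the 2 that were lower after that scaling and not called before it. The 4 that rose were CHD1, KDM4A, PHF13 and PHF23, and of these KDM4A and PHF23 were also higher after it.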

How the data were processed

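RNA was sequenced in 6 libraries, 3 per group, grouped by sample title. Values are FPKM per gene symbol with 2 decimals as deposited by the authors, per the file headers. The submitters' processing notes list HISAT2, featureCounts, edgeR, FastQC 0.11.5 and hg38 without their roles; the annotation and strand handling are not stated. The values of a library summed to 821498 to 836182, which cannot tell FPKM from TPM. Absolute depth is unknown, so no counting intervals were set; relative depth came from the modal ratio of values under 1 FPKM between libraries (all pairs within 0.0067 log2 units of a joint fit).

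The 11573 genes with an average of 1 FPKM or more were tested with limma 3.58.1 (R 4.3.3) on log2(FPKM + 1), treatment as the only term, intensity trend, and Benjamini-Hochberg adjustment over all of them. The fit was first run on simulated data in which few genes changed, with either direction equally likely. Most genes were called in the real data, so that run cannot show how the fit behaves here. Fold changes on this scale understate changes of low genes. No 2 libraries of a group shared more than 0.389% of their values, so none was a copy of another. Each was counted as a replicate, although whether they were separate cultures is not stated. Positions and exon overlaps came from GENCODE release 29 (GRCh38). The members, lists and alternatives were chosen with earlier results of these data known. Values in every library were to be given for members called alike as deposited and after median-ratio scaling, up to 5 per role, with WDR5 and all demethylases, and up to 4 further pathway genes per direction; the other members named with values, RCOR1 and the genes overlapping members were added after their values were seen. Alternatives were the pseudocount, the expression limit, 3 scalings, leaving out each library, a block for the replicate number, no trend, array weights and treat.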

Additional observations from a re-analysis of the deposited data

How the results depend on the processing

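Median-ratio scaling took the members called higher from 21 to 13 and, of the further pathway genes, the higher from 15 to 9 and the lower from 4 to 7 (7 with quantile scaling too); over all genes it took the share of calls that were rises from 61.6% to 49.1%. Testing against a 1.2-fold change left 3595 genes higher and 2135 lower, 9 and 4 members, and 8 and 2 further pathway genes. The uncalled changes of SETD1A, KDM5A and TAF5 turned negative, at -0.067, -0.040 and -0.015 with median-ratio and -0.097, -0.014 and -0.11 with quantile scaling. Leaving out each library gave 5151 to 5228 genes higher and 3209 to 3279 lower, 19 to 20 and 8 to 10 members, and 13 to 16 and 3 to 5 further pathway genes. With the replicate number as a block, 5351 genes were higher and 3355 lower, 21 and 9 members (SETD7 lost its call, limma adjusted p = 0.0845), and 16 and 3 further pathway genes. Same-numbered libraries deviated together at r = 0.031, 0.047 and -0.0021, and differently numbered ones at -0.057 to 0.029. The deviations were centred within each group of 3 libraries, so these values cannot decide whether same-numbered libraries were paired. Other pseudocounts, expression limits, array weights and the fit without a trend kept each of these counts within 1.5 times, and array weights ended the call of SETD7 (limma adjusted p = 0.0525). SMYD3 and TBP lost their calls with no filter on low values (limma adjusted p = 0.0529 and 0.0663), and SMYD3, TBP and SETD7 in the fit without a trend (0.0523, 0.0588 and 0.0554), where KDM5A gained a call as higher (0.0469). The lower depth of the GK921 libraries makes values near 0 coarser, where no member lies.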

Other observations

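The order of the members by level was steep. DPY30, TAF7, WDR82, WDR5, TAF10 and KDM5C led, with means over the 6 libraries of 107, 89.4, 79.8, 68.4, 62.9 and 58.1 FPKM, and TAF5, KMT2C and ING1 closed it at 4.84, 6.59 and 7.07 FPKM. Of the 10 most abundant members 6 were called lower and 4 higher, beside 29.2% and 46.8% of all tested genes. With median-ratio scaling 6 were lower and 2 higher, beside 37.8% and 36.5%, TAF6 and TAF2 being not called. These shares are over genes of every level, and the share among genes as abundant as these was not computed. In DMSO WDR82 was above TAF7 in each library and after GK921 TAF7 was above WDR82 in each, at 101 to 105 against 53.5 to 57.2 FPKM. Across the 39 genes the mean level and the log2 change had a Spearman rho of -0.24, and -0.15 across all 11573 tested genes, both from the same 6 libraries and given as a description, since genes are not independent replicates.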
